A study of Mus musculus with 4 samples.

Results

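The genes described here encode the machinery that docks, fuses and recycles synaptic vesicles, together with the close relatives that serve other membrane traffic. They were taken by symbol from the protein-coding genes of GENCODE M21: the synaptotagmins, syntaxins, VAMPs, SNAP-25 relatives, complexins, synapsins, SV2 proteins, syntaxin-binding proteins, synaptogyrins, synaptophysin and the clathrin adaptor Snap91. The rule found 64 of 21951 coding genes. The mark measured was H3K27ac, acetylated lysine 27 of histone H3, which is found at promoters and enhancers in use. ChIP-seq was done on tissue labelled layer of hippocampus from B6CASTF1/J males, F1 hybrids of C57BL/6 and CAST mice, aged 2 months, and the labels name no treatment. There were 4 samples in 1 group and no contrast: pool C (biological replicate 1) and pool D (biological replicate 2) were each made from 7 biosamples and carried 2 technical replicates. Pooling leaves 2 independent units and no view of single animals.

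SNARE proteins drive membrane fusion by zipping together a vesicle-bound R-SNARE, such as a VAMP, with a syntaxin and a SNAP-25 type protein on the target membrane. At hippocampal synapses Vamp2 and Snap25 take part in this complex, Munc18 proteins and complexins govern its assembly, and synaptotagmins couple its completion to calcium. Synapsins tether the reserve vesicles, and SV2 proteins, synaptophysin and synaptogyrins are abundant proteins of the vesicle membrane. The same families also hold members that act at the Golgi, in endosomes, in immune cells or in retina.

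Values come from the authors' replicated peak list, built from both pools, unless another list is named. A gene is called marked when a peak lay within 1 kb of a transcription start site (TSS) of one of its coding transcripts. Its promoter signal is the deposited signal of the strongest such peak, a value of the authors with no stated scale. Covered length is the number of bp under peaks within 10 kb either side of the gene's main TSS. In this bulk tissue a signal spread over fewer cells and less mark per cell cannot be told apart. Coordinates are in mm10.

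Pool D gave a thinner list than pool C: 63623 peaks over 64.5 Mb with a median width of 743 bp, against 94836 peaks over 122.9 Mb with a median of 894 bp. The replicated list held 88930 peaks over 119.0 Mb (median 947 bp), and 82099 of its peaks stood with the same bounds, summit and signal in the list of both pools joined, so the lists are not independent. Read totals were not in the files used, so depth is unknown and an unmarked gene is one with no peak detected at this depth. The labelled tissue was checked against marker genes. All 4 excitatory neuron markers, 3 of 3 for dentate granule cells and 3 of 3 for CA pyramidal cells were marked. So were 4 of 4 for astrocytes, 3 of 3 each for oligodendrocytes, microglia and endothelium, 2 of 3 for GABA interneurons and 1 of 2 for oligodendrocyte precursors. Of 4 genes of other tissues, Gabra6, Alb and Krt5 were unmarked and Myh7 was marked with a signal of 15.2.

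Most of the family was marked. A promoter peak was found at 54 of the 64 members (84.4%), beside 60.8% of all coding genes. Role groups are small, and their counts below stand beside the same 60.8%. The pool C list marked 55 members (all genes, 61.4%), the pool D list 52 (all genes, 57.1%) and the list of both pools joined 56 (all genes, 61.7%). Both pools marked 52 members, and Vamp5, Sv2c and Stxbp2 were marked in pool C alone. No member was marked in pool D alone, and 9 were marked in neither pool. The signal of the 54 marked members ran from 4.63 at Sv2c to 38.0 at Vamp2, with a median of 15.4 beside 13.8 for all marked genes. Thus 35 of the 54 stood above the median of all marked genes and 19 at or below it, and the median member stood at percentile 58.5 of all marked promoters.

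The promoter sequences of 2 neuronal members are shown because their genes form or organise the release machinery and because they hold the motifs searched. Each window runs from 250 bases before to 50 after the main TSS, was read from the RefSeq GRCm38.p6 genome, and is given on the strand of the gene. That genome is the mouse reference and not that of the hybrid animals, so letters of their CAST alleles may differ. Capitals mark motif matches on either strand. In Vamp2, chr11:69088240-69088539 on the plus strand, they mark GGGCGG (the SP box), GCGTGGGCG (the EGR box) and TGACG (the CRE core), and the EGR match overlaps 1 SP match.
Vamp2: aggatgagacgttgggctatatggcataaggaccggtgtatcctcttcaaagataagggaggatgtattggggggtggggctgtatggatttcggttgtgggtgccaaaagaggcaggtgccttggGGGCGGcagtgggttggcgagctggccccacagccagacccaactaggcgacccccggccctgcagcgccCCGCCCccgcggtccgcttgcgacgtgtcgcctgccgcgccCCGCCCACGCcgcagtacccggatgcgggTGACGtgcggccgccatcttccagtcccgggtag
In Syn1, chrX:20920869-20921168 on the minus strand, capitals mark TTCAGCACC (the left part of the RE1 element) and TGACGTCA (the full CRE).
Syn1: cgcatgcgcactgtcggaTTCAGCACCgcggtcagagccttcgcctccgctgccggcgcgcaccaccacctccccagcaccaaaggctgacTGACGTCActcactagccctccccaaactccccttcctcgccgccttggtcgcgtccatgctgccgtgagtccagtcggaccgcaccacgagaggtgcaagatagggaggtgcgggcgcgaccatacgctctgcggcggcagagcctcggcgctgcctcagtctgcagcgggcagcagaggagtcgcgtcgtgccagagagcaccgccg
Both windows lay at marked promoters, with signals of 38.0 for Vamp2 and 13.9 for Syn1.

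Over all 64 members, the full CRE TGACGTCA was in 4 windows, among them those of Stxbp3, Syn1 and Vamp3, or 6.25% beside 2.48% of 21938 coding promoters of the same length. Its core TGACG, which is also part of every full CRE, was in 25 (39.1% beside 23.7%). The SP box GGGCGG was in 48 (75.0% beside 45.4%), CCAAT in 22 (34.4% beside 38.6%) and the E-box CANNTG in 46 (71.9% beside 69.1%). TATAAA was in 4, among them Stx18, Stx8 and Sv2b (6.25% beside 12.6%), and the AP-1 site TGANTCA in 2, among them Vamp9 (3.12% beside 6.68%). The EGR box GCGTGGGCG was found in Vamp2 alone among members (1.56% beside 0.798%). RE1 is the element bound by the repressor REST, which silences neuronal genes outside neurons. Its left part TTCAGCACC was in the Syn1 window alone (1.56% beside 0.365%), and its right part GGACAGCGC was in no member's window (0.542% of all). Within 1 kb either side of the main TSS the left part was found at 6 members, among them Cplx1, Cplx2, Stx1a, Syn1 and Syt4 (9.38% of members beside 2.96% of genes) and the right part at 3, among them Cplx1 and Syt15 (4.69% beside 2.38%). The promoters compared were not matched for base composition. Median GC within 500 bp of the main TSS was 59.2% for members and 55.2% for all coding genes. Whether this accounts for the motif shares was not tested. All matches are descriptions of letters and not of binding.

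Another 4 windows show cases in which CpG content and the mark did not go together. They are examples and not the rule, since 35 of 40 members rich in CpG were marked, as given below. CpG dinucleotides are in capitals. Syt17 and Sv2a were marked with few CpGs, and Syt9 and Stx11 were unmarked with many.
Syt17: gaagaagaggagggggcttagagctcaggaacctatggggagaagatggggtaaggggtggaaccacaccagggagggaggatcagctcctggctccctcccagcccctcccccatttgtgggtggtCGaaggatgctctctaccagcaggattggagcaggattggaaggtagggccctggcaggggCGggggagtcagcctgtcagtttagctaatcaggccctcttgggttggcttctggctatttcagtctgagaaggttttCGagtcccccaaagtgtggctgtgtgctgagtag
Sv2a: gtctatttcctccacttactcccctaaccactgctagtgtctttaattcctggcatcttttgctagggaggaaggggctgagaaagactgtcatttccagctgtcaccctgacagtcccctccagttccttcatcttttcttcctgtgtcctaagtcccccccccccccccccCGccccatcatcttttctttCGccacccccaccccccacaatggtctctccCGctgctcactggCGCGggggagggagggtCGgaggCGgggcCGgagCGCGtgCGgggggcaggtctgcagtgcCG
Syt9: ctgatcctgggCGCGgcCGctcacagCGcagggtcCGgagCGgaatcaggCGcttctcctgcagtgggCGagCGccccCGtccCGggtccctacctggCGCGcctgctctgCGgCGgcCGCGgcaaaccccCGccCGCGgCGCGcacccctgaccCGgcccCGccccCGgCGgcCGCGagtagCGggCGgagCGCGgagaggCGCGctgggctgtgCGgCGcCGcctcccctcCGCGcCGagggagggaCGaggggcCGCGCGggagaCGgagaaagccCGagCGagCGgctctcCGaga
Stx11: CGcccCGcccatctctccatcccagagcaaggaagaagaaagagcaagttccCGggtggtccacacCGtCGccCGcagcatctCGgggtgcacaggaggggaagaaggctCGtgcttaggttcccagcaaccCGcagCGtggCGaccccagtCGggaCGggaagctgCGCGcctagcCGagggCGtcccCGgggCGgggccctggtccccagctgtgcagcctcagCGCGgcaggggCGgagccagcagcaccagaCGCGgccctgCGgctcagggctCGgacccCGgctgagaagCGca
The windows are chr7:118443511-118443810 (minus strand) for Syt17, chr3:96180901-96181200 (plus) for Sv2a, chr7:107370540-107370839 (plus) for Syt9 and chr10:12964213-12964512 (minus) for Stx11. They hold 3 CpGs in Syt17, 12 in Sv2a, 49 in Syt9 and 28 in Stx11.

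The observed/expected CpG ratio was taken over 500 bp either side of the main TSS, and a ratio of 0.6 or more was called CpG-rich. By this limit 62.5% of members and 47.5% of all coding genes were CpG-rich. Among the 40 CpG-rich members 35 were marked (87.5%), near the 91.6% of all CpG-rich genes. Among the 24 CpG-poor members 19 were marked (79.2%), beside 33.0% of all CpG-poor genes. The CpG-poor background holds the large olfactory, vomeronasal and trace amine receptor families, and without them it was 37.8%, an alternative chosen after seeing the data. The lowest ratios among marked members were those of Syt17 (0.273), Sv2a (0.328), Syn3 (0.351), Syt3 (0.384) and Vamp8 (0.386). Others lay just under the limit of 0.6, among them Stx16 (0.588), Syngr3 (0.587), Stx1a (0.585) and Sv2b (0.582). All coding genes without a promoter peak, of either class, had a median ratio of 0.197. Ratios were not matched within the CpG-poor class, so the shares of members and of all genes are not like for like. CpG-poor marked members had a median signal of 16.2 and CpG-rich ones 15.2, whereas over all genes these medians were 10.2 and 14.9. Each pool list marked 19 of the 24 CpG-poor members. The unmarked CpG-rich members were Syt9 (0.897), Stx11 (0.811), Syt2 (0.747), Stxbp2 (0.650) and Syt6 (0.603). Over the 54 marked members, which share libraries and depth, ratio and signal had a Spearman rho of 0.099, a description across genes.

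**Figure D1:**
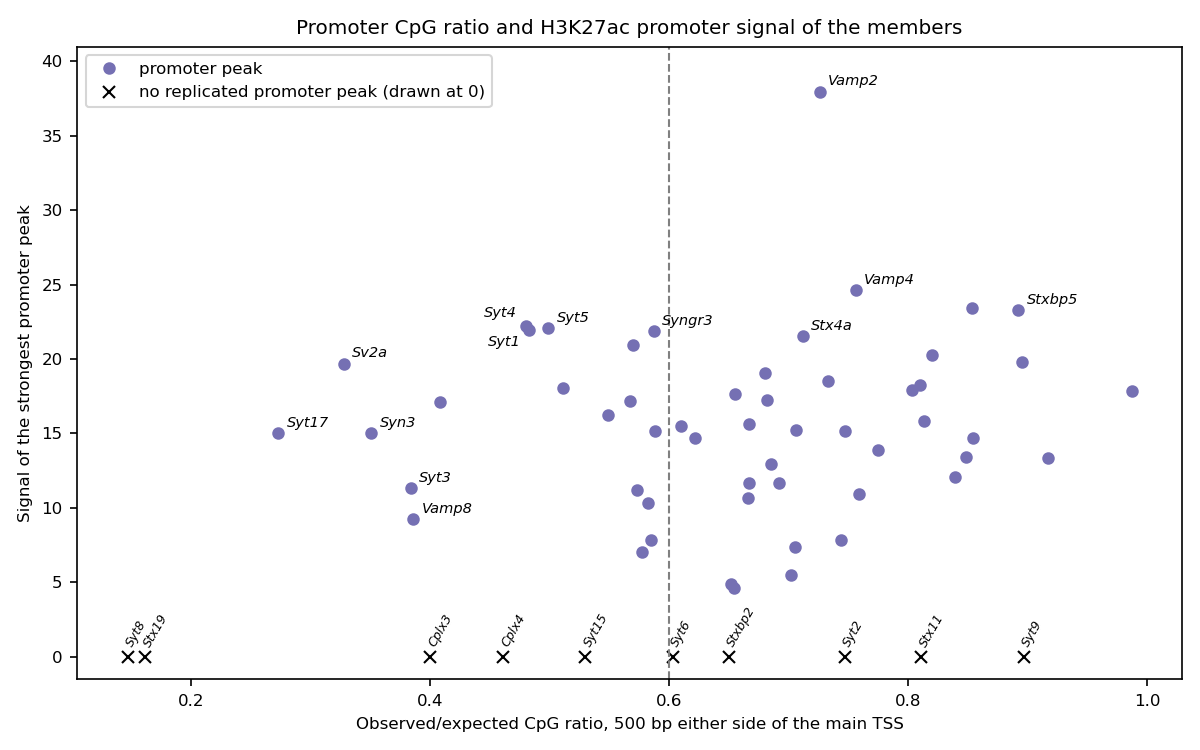
Observed/expected CpG ratio within 500 bp of the main TSS (x axis) against the signal of the strongest promoter peak (y axis) for the 64 members, with unmarked members as crosses drawn at 0 and a dashed line at a ratio of 0.6. Of the 24 members left of the line 19 were marked, and of the 40 to its right 35 were marked.

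Among the R-SNAREs of regulated exocytosis, Vamp2 alone stood apart, with the highest signal of any member. Vamp2, the main synaptic vesicle R-SNARE of forebrain, had a promoter signal of 38.0, above 99.4% of marked promoters, in a peak of 4379 bp (chr11:69088018-69092396). That peak was 4385 bp wide in the pool C list and 2560 bp in the pool D list. The whole Vamp2 gene, 3.90 kb long, lay under replicated peaks, with 3895 bp covered in pool C and 2130 bp in pool D. Covered length around its TSS was 11654 bp, with 11763 bp in pool C and 8468 bp in pool D. Part of this belongs to peaks at starts of neighbouring genes: without peaks within 1 kb of another coding TSS it was 5983 bp. Vamp3, the widely expressed cellubrevin, had a signal of 17.9 (chr4:151056904-151059013) with 3674 bp covered, 3394 bp in pool C and 2374 bp in pool D. Vamp1, the other synaptobrevin, had 17.3 and 4423 bp, and its coverage was 4886 bp in pool C against 1177 bp in pool D. The 3 genes were marked in both pools.

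Among the other VAMPs, Vamp4, an R-SNARE of the trans-Golgi network and endosomes, had the second highest signal of the family, 24.6, in a peak at chr1:162569922-162572002 that made up its whole covered length of 2081 bp (2072 bp in pool C, 1949 bp in pool D). Vamp8, the endosomal endobrevin, had 9.22 (chr6:72389440-72390951) with 1634 bp covered. Its neighbour Vamp5, known from muscle, had 4.86 in a peak near, but not holding, a start site downstream of its main TSS. Another Vamp5 peak, with a nearly equal signal of 4.735, held the main TSS. Vamp5 was not marked in pool D. The 10 kb windows of Vamp5 and Vamp8 overlap, so the 3347 bp covered around Vamp5 include peaks at Vamp8. Vamp9, whose role is not described here, had 10.7 at chr5:99905996-99907025 with 1030 bp covered, 1055 bp in pool C and 682 bp in pool D. Vamp4 and Vamp2 were the only members within the highest 10% of marked promoters, and Vamp5 and Sv2c the only ones within the lowest 10%.

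Plasma membrane syntaxins pair with SNAP-25 type proteins, and 5 of 7 were marked (71.4%, beside 60.8% of all coding genes). Stx4a, a syntaxin of constitutive and insulin-regulated exocytosis, led with 21.5 (chr7:127840545-127843177) and 2633 bp covered, 2938 bp in pool C and 2394 bp in pool D. Stx1a, a neuronal syntaxin, stood far lower, at 7.83 with 2601 bp covered, and its peak was 1336 bp wide in pool C and 371 bp in pool D. Stx2 and Stx3 both had 14.7, with 6469 and 6212 bp covered. Coverage was 5151 bp in pool C and 1742 bp in pool D for Stx2, and 6220 and 3811 bp for Stx3. No peak was found near Stx11, a syntaxin of cytotoxic lymphocytes (main TSS at chromosome 10, 12964262), or Stx19 (chromosome 16, 62814676), and neither had a covered base within 10 kb in any of the pool lists.

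All 8 syntaxins of inner membranes were marked, in both pools. Stx6, of the trans-Golgi network and endosomes, had 17.9 in a peak of 1146 bp at its main promoter (chr1:155158641-155159786), with 3155 bp covered, 4052 bp in pool C and 1964 bp in pool D. Stx5a, the Golgi syntaxin, had 17.6 (chr19:8740592-8742769) and 3396 bp covered, but all of those bases lay in peaks within 1 kb of another gene's TSS. The late endosomal Stx7 (15.5) and Stx8 (7.01) differed in signal, and the Stx8 peak lay within 1 kb of the Cfap52 TSS. The autophagosome syntaxin Stx17 had 15.2, Stx16 of the trans-Golgi network 15.2, the recycling endosome syntaxin Stx12 had 12.1 and the ER syntaxin Stx18 had 11.7. Their group median was 15.2, and covered lengths ran only from 940 to 3396 bp.

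The SNAP-25 family was marked throughout, 4 of 4. Snap29, which serves autophagosome fusion among other steps, had 18.3 (chr16:17404237-17406808, 2572 bp) in a peak that also held the start of another gene. Snap25, the neuronal member, had 16.2 in a peak of 7409 bp (chr2:136712097-136719505). In pool C the Snap25 peak was 7532 bp wide, and in pool D it was broken up, with a strongest peak of 2100 bp. Its covered length was 8612 bp, with 7987 bp in pool C and 6050 bp in pool D. Snap47 had 15.2 and the ubiquitous Snap23 had 11.0, with 2216 and 2920 bp covered. The Snap47 peak also held the start of Jmjd4.

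**Figure D2:**
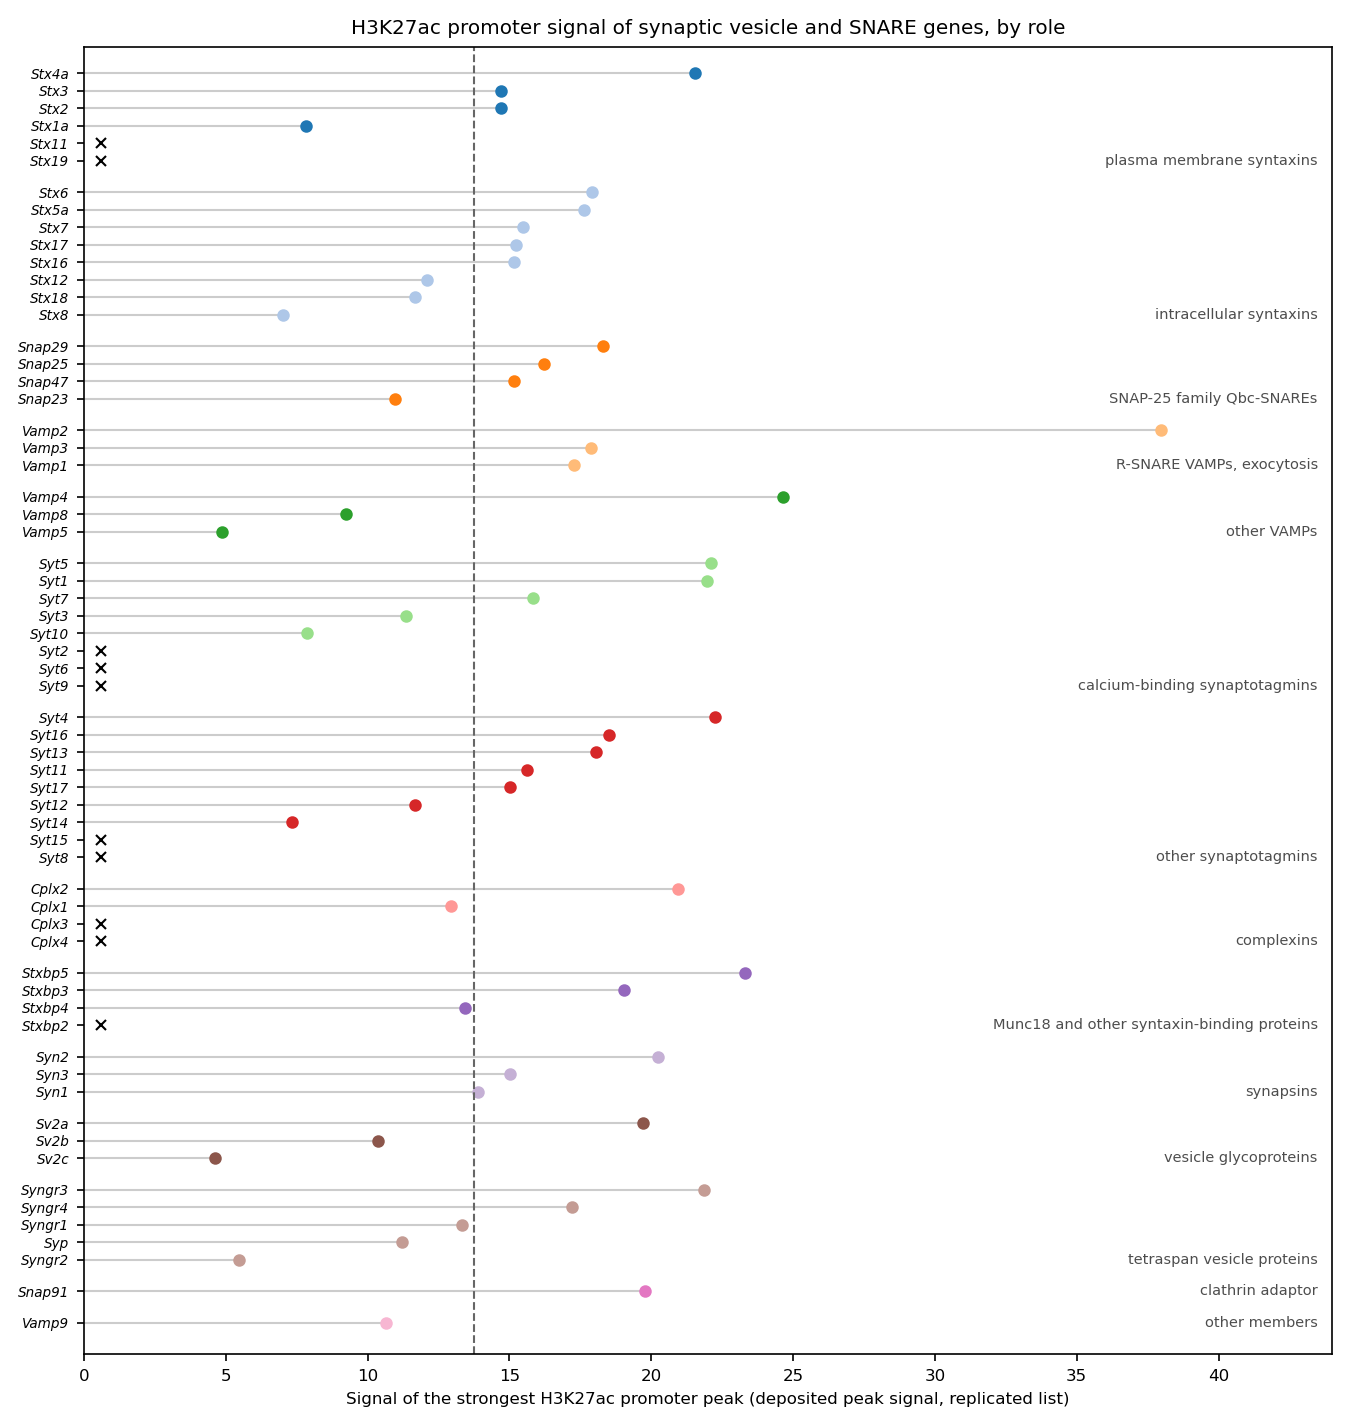
Signal of the strongest H3K27ac promoter peak in the replicated list (x axis, the authors' deposited units) for 62 of the 64 members (y axis), grouped by role, with crosses for the 10 members without a promoter peak and a dashed line at 13.8, the median of all marked coding genes. Vamp2 at 38.0 stands apart from Vamp4 at 24.6, and the unmarked members fall among the synaptotagmins, complexins, plasma membrane syntaxins and syntaxin-binding proteins.

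Calcium-binding synaptotagmins trigger fusion, and 5 of 8 were marked (62.5%), near the 60.8% of all coding genes. Syt5 had the highest signal, 22.1, in a peak at chr7:4545510-4547874 that was its whole covered length of 2365 bp (2336 bp in pool C, 2047 bp in pool D). Syt1, the fast sensor of forebrain synapses, had 22.0 in a peak of 9557 bp (chr10:109002656-109012212), the widest of any member, and the strongest peak there was 8356 bp in pool C and 8000 bp in pool D. Syt7, the slow, high-affinity sensor, had 15.8 (chr19:10389361-10392376, 3016 bp) and 10528 bp covered, 10421 bp in pool C and 8193 bp in pool D. Syt3 had 11.4 with 5517 bp and Syt10 had 7.87 with 2359 bp. Syt2, the fast sensor best known from hindbrain and spinal cord (main TSS at chromosome 1, 134646681), Syt6 (chromosome 3, 103575231) and Syt9 (chromosome 7, 107370790) were unmarked in both pools with no covered base within 10 kb. Only the list of both pools joined gave Syt9 a promoter peak.

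Of the 9 other synaptotagmins, which mostly lack calcium-binding residues, 7 were marked. Syt4 had 22.2 (chr18:31445839-31449608, 3770 bp) and 6975 bp covered, 7467 bp in pool C and 3644 bp in pool D. Syt16 had 18.5 (chr12:73996480-73998576), and its peak was its whole covered length of 2097 bp, 2082 bp in pool C and 1986 bp in pool D. Syt13 followed with 18.0 and 8770 bp, Syt11 with 15.6 and 2581 bp, Syt17 with 15.0 and 7571 bp, Syt12 with 11.7 and 2206 bp, and Syt14 with 7.35 and 6175 bp. The strongest Syt11 peak lay near an alternative start rather than at its main TSS. Syt8 (main TSS at chromosome 7, 142434977) and Syt15 (chromosome 14, 34220047) had no promoter peak in any of the 4 lists. The 501 bp covered near Syt8 lay within 1 kb of another gene's TSS, and Syt15 had 0 bp in the replicated list and 245 bp in pool C.

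Complexins clamp and then assist the SNARE complex, and the family divided evenly. Cplx2 had 20.9 (chr13:54370103-54372898, 2796 bp) and the largest covered length of all members, 14315 bp, with 14680 bp in pool C and 8806 bp in pool D. That coverage came from a run of peaks on both sides of the promoter, among them 1 of 4238 bp upstream with a signal of 10.1 and 1 of 2638 bp downstream with 10.9. Cplx1 had 13.0 (chr5:108548683-108550725) and 3360 bp, 3959 bp in pool C and 2225 bp in pool D. Cplx3 and Cplx4, known from retinal ribbon synapses, were unmarked in all 4 lists. Cplx4 (main TSS at chromosome 18, 65970237) had no covered base, whereas Cplx3 (chromosome 9, 57606281) had 1310 bp in 2 peaks towards the end of the gene, with signals of 4.51 and 3.24.

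Syntaxin-binding proteins open or hold syntaxins, and 4 of 5 were marked. Stxbp5, the tomosyn that competes for syntaxin, had 23.3 (chr10:9898395-9901932, 3538 bp) with 4723 bp, 4615 bp in pool C and 4422 bp in pool D. Stxbp3, the Munc18c partner of syntaxin 4, had 19.0 and 1869 bp, and Stxbp4 (Synip) had 13.4 and 2073 bp. The Stxbp4 peak also held the start of Cox11, and 0 bp remained without peaks near the TSS of other genes. Stxbp2, the Munc18-2 of immune and epithelial secretion (main TSS at chromosome 8, 3630955), had a promoter peak of 442 bp in pool C but none in pool D or the replicated list. The 839 bp covered near Stxbp2 lay in peaks at the starts of Pet100 and Xab2.

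All 3 synapsins, which tether vesicles, were marked in both pools. Syn2 had 20.2 (chr6:115134301-115136209) with 6174 bp, Syn3 had 15.0 (chr10:86497458-86498915) with 4187 bp, and Syn1 had 13.9 in a peak of 3572 bp with 4889 bp. Coverage at the synapsins was 5914 bp for Syn2, 5125 bp for Syn3 and 6047 bp for Syn1 in pool C. It was 4085 bp, 3647 bp and 1570 bp in pool D, so that Syn1 had the most in one pool and the least in the other.

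The 3 SV2 genes differed in signal. Sv2a, the binding site of the antiepileptic levetiracetam, had 19.7 (chr3:96179173-96183012, 3840 bp) with 5876 bp, 5707 bp in pool C and 4359 bp in pool D. Sv2b had 10.4 (chr7:75307156-75309460) with 3973 bp, 4016 bp in pool C and 2947 bp in pool D. Sv2c, best known from basal ganglia, had the lowest signal of any marked member, 4.63, in a peak that does not hold its main TSS and that a TSS window of 500 bp leaves out. In pool D a peak overlapped the one at Sv2c but lay outside the 1 kb window, so the gene was not called marked there.

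Tetraspan proteins were marked in 5 of 5. Syngr3, a neuronal synaptogyrin, had 21.9 (chr17:24688860-24691749, 2890 bp) with 4703 bp, 5159 bp in pool C and 3532 bp in pool D. Syngr4 had 17.2 (chr7:45896979-45898269) with 1291 bp, all in a peak at another gene's TSS. Syngr1, the other neuronal synaptogyrin, had 13.3 (chr15:80090505-80093337) and 11497 bp, of which 5888 bp remained without peaks near the TSS of other genes. Syp, synaptophysin itself, had 3147 bp covered and a signal of 11.2, from a peak that starts downstream of its main TSS. A weaker Syp promoter peak with a signal of 6.13 (chrX:7637924-7638508), overlapping pool C only, held the main TSS. Syngr2, the cellugyrin of non-neuronal cells, had 5.46 and 900 bp, in a peak within 1 kb of the Gm20708 TSS. Snap91, the AP180 adaptor that gathers clathrin at nerve terminals, had 19.8 (chr9:86878549-86881386), a peak equal to its covered length of 2838 bp (2740 bp in pool C, 2338 bp in pool D).

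Coverage around start sites differed widely among members. The median covered length was 2879 bp, beside 1492 bp over all coding genes, and it ran from 0 bp at Cplx4, Stx11, Stx19, Syt15, Syt2, Syt6 and Syt9 to 14315 bp at Cplx2. After Cplx2 came Vamp2 (11654 bp), Syngr1 (11497 bp), Syt7 (10528 bp) and Syt1 (9557 bp). In pool C the members' median was 3027 bp (all genes, 1522 bp) and in pool D 1956.5 bp (all genes, 993 bp). Coverage was longer in pool C for 57 members, equal for 6 and shorter for 1, Syt12, with 1500 bp in pool C and 1784 bp in pool D. The pool D list as a whole covers fewer bases, and the part of depth in this was not tested. Among the 54 marked members signal and covered length had a Spearman rho of 0.346, a description over genes from the same libraries.

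**Figure D3:**
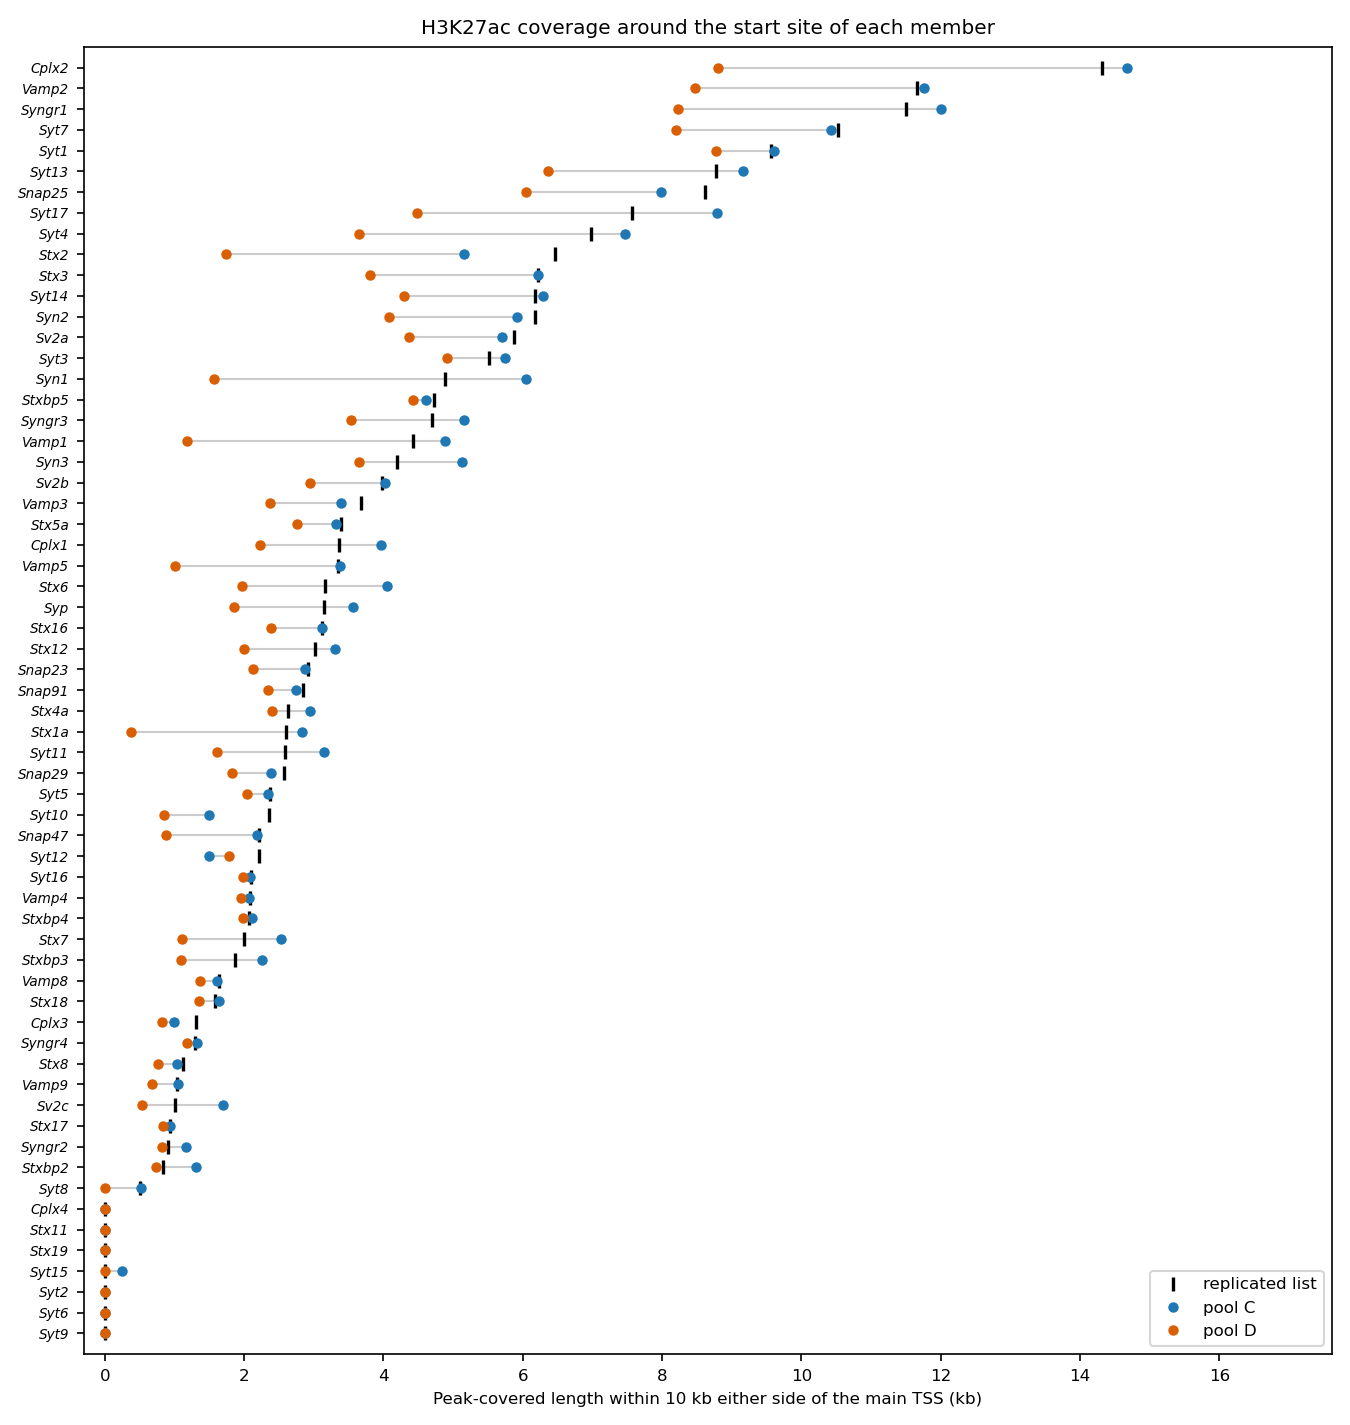
Length under peaks within 10 kb either side of the main TSS (x axis, kb) for 62 of the 64 members (y axis, ordered by the replicated list), with black ticks for the replicated list, blue points for pool C and orange points for pool D. Cplx2, Vamp2, Syngr1, Syt7 and Syt1 lead, pool C exceeds pool D for most members, and 7 members have no covered base in the replicated list.

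Promoter peaks of 5 kb or more are wide domains often seen at genes of cell identity. They were found at 3 of the 64 members, Syt1, Snap25 and Stx6. That share was near the 4.0% of all coding genes (877 of 21951), so such peaks did not set the family apart. At Syt1 and Snap25 the wide peak held the main TSS. At Stx6 the wide peak of 6406 bp (signal 8.44) lay at an alternative coding start, with its summit 34665 bp downstream of the main TSS, while the main promoter had a peak of 1146 bp. Pool C counted Syt1, Snap25 and Syngr1, and pool D counted Syt1 alone. The replicated list held 1922 peaks of that width, pool C 1937 and pool D 412.

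The strongest promoter peak had its summit downstream of the nearest coding TSS at 44 of 54 marked members (81.5%), beside 66.2% of all marked genes. The median summit was 175 bp downstream, beside 116 bp. The strongest peak held the main TSS at 47 of 54 (87.0%, beside 74.4%), and the exceptions were Sv2c, Syngr2, Syngr4, Syp, Syt11, Vamp1 and Vamp5. At Syp and Vamp5 a weaker peak held the main TSS. The strongest peak was also checked for other genes. In 6 of 54 (11.1%, beside 17.4%) it also held a start of another coding gene, so the signal there cannot be assigned to the member alone. These were Snap29, Snap47, Stx5a, Stxbp4, Syngr1 and Syngr4.

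Inside the genes, peaks over 2.5 kb from the gene's own coding TSSs and over 1 kb from those of other genes were found in 40 of the 64 members, beside 33.9% of all coding genes. Of these 40, Cplx2, Snap47, Stx7, Stx12, Stx17 and Syt6 had no body peak in the pool D list, and Vamp3 had none in either pool list. Conversely, Syt11 had body peaks in both pool lists but none in the replicated list, and Syt3, Sv2a and Syt15 had them in pool C alone. Members are longer, with a median of 31.2 kb beside 17.4 kb, so the count was split by length. Under 20 kb, 5 of 20 members had such a peak (all genes, 12%). From 20 to 50 kb it was 15 of 22 (all genes, 42.9%), from 50 to 100 kb 8 of 9 (67.4%), and from 100 kb 12 of 13 (85.6%), where the share was near that of other genes. Syt9 was the only member over 100 kb without one. Gene length and number of body peaks had a Spearman rho of 0.723 over the 64 members and 0.618 over all 21951 genes, as a description.

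Syt1 stood out by its gene body. It held 121 body peaks, which ranked it 11 among all coding genes, and 165964 bp of its 513.3 kb (32.3%) lay under peaks, rank 20. Coding genes of 100 kb or more had a median of 6.5 body peaks and 4.38% of their length covered. By pool list the covered part of Syt1 was 168666 bp in pool C and 76458 bp in pool D. Of the 121 Syt1 body peaks, 54 overlapped peaks of both pools, 47 of pool C alone, 1 of pool D alone and 19 of neither. Counted in the pool lists themselves, Syt1 had 138 body peaks in pool C and 79 in pool D. All but 1 of the 121 summits lay in introns, and the median signal of these peaks was 3.59, beside 4.28 for all replicated peaks. Weak calls are included, 1 with a signal of 1.59 and a −log10 q of 0.868. No limit on signal or q was set for body peaks.

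Other members with long bodies were covered less. Syn2 had 23 body peaks and 43103 bp of 147.1 kb covered (29.3%), while Syn3, longer at 443.8 kb, had 20 and 31163 bp (7.02%). In pool D the covered part was 15319 bp of Syn2 and 17599 bp of Syn3, beside 44511 and 32518 bp in pool C. Timp4 lies inside Syn2 and Timp3 inside Syn3, and peaks at their starts are left out of the body peaks but stay in the covered lengths. Syt16 had 26 body peaks over 275.6 kb (10.5% covered), Sv2b had 22 over 194.4 kb (13.8%) and Sv2c had 9 over 178.0 kb (4.51%). These 3 genes had less coverage in pool D than in pool C: 14957 against 26711 bp at Syt16, 7176 against 32041 bp at Sv2b and 2314 against 9531 bp at Sv2c. Stx8, 241.0 kb long, had 7 (2.92%), with 7395 bp covered in pool C and 2601 bp in pool D.

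Several shorter members were more densely covered. Syt7 had 13 body peaks and 46.4% of its 64.1 kb under peaks, Snap25 had 16 and 35.3% of 69.0 kb, and Syt17 had 14 and 35.0% of 67.5 kb. Syt13 had 10 and 41.9% of 41.0 kb, and Stx6 had 5 and 36.1% of 49.5 kb. Cplx2 (54.2%) and Syt4 (49.7%) were covered over much of their short genes, with 6863 and 5292 bp in pool C and 3603 and 2007 bp in pool D. Genes of 50 to 100 kb had a median of 4.20% covered and genes of 20 to 50 kb 4.11%. The coverage of Snap25 was 20620 bp in pool C and 11726 bp in pool D, and that of Syt7 was 30222 and 18882 bp. Stx6 had 20201 bp in pool C and 11548 bp in pool D, Syt13 had 20647 and 8611 bp, and Syt17 had 25101 and 11715 bp. Over all members 374 different body peaks were counted, of which 172 (46.0%) overlapped peaks of both pools, beside 89.5% of the 76 promoter peaks and 54.0% of all replicated peaks. Introns held 352 of the 374 summits.

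Even unmarked members could hold a body peak. Syt2 had 1 of 1996 bp with a signal of 6.48, in an intron 109707 bp from its main TSS and present in both pools. Syt6 had 1 of 665 bp with 4.63, overlapping pool C only.

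**Figure D4:**
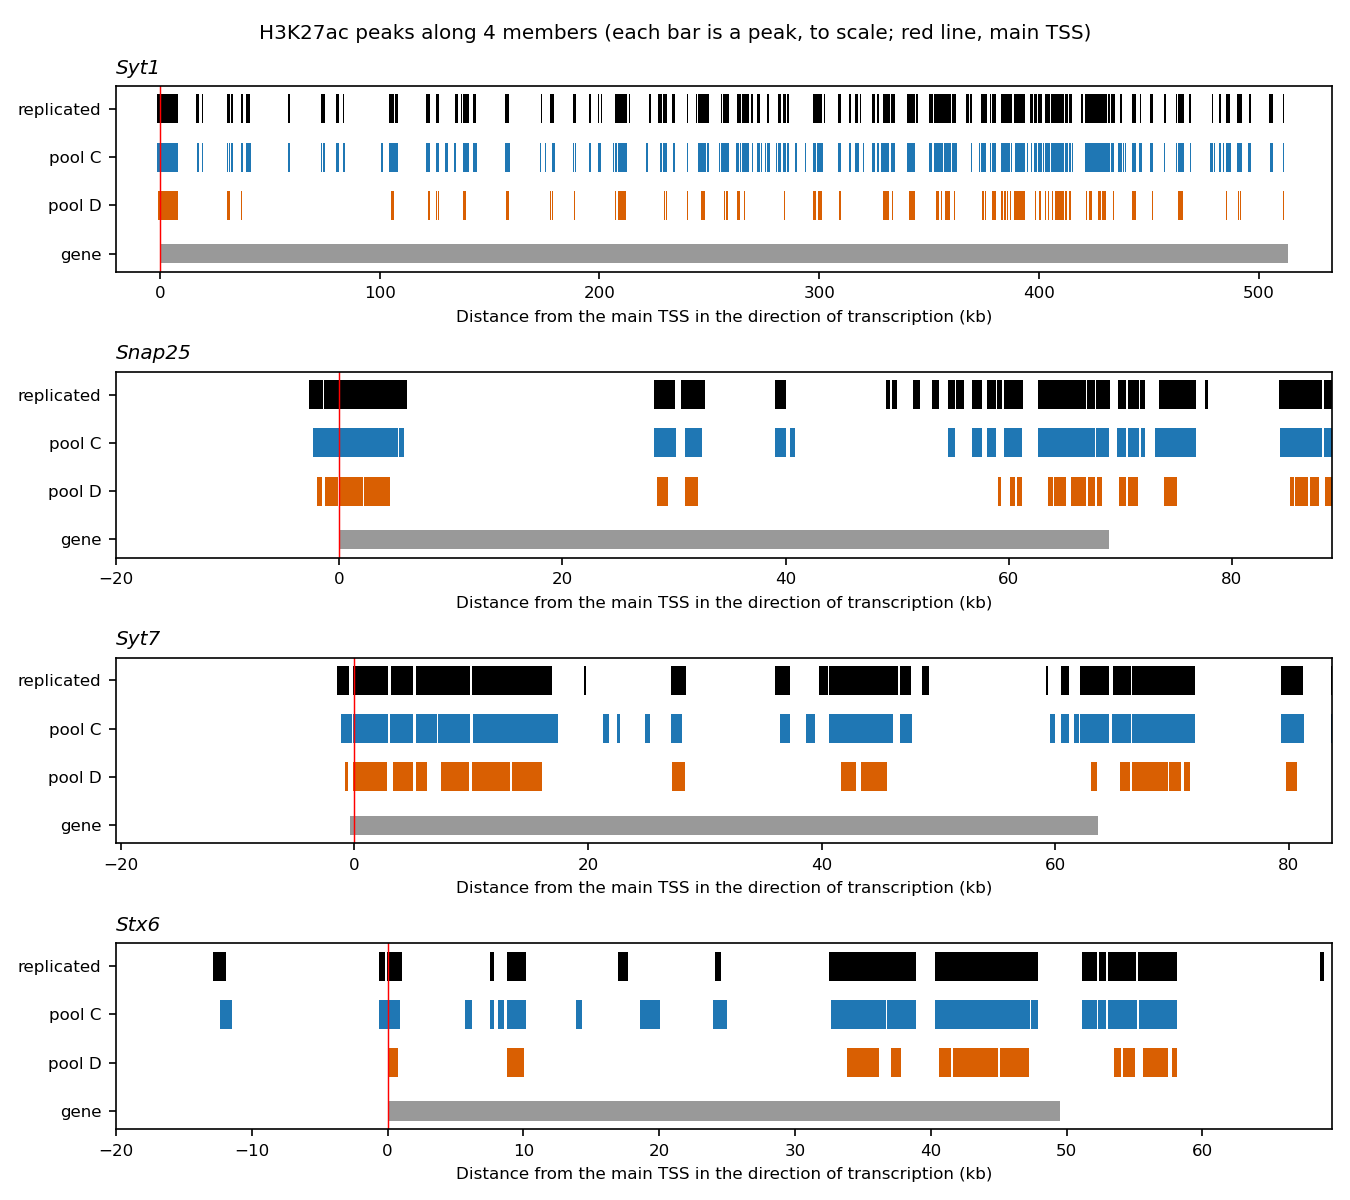
Peaks (bars to scale) along Syt1, Snap25, Syt7 and Stx6 in the replicated list (black), pool C (blue) and pool D (orange), by distance in kb from the main TSS (red line), with the gene in grey. Syt1 shows 121 body peaks spread over its length, Snap25 and Syt7 a block at the start and further blocks along the gene, and Stx6 its widest peaks far downstream of the main TSS.

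**Figure D5:**
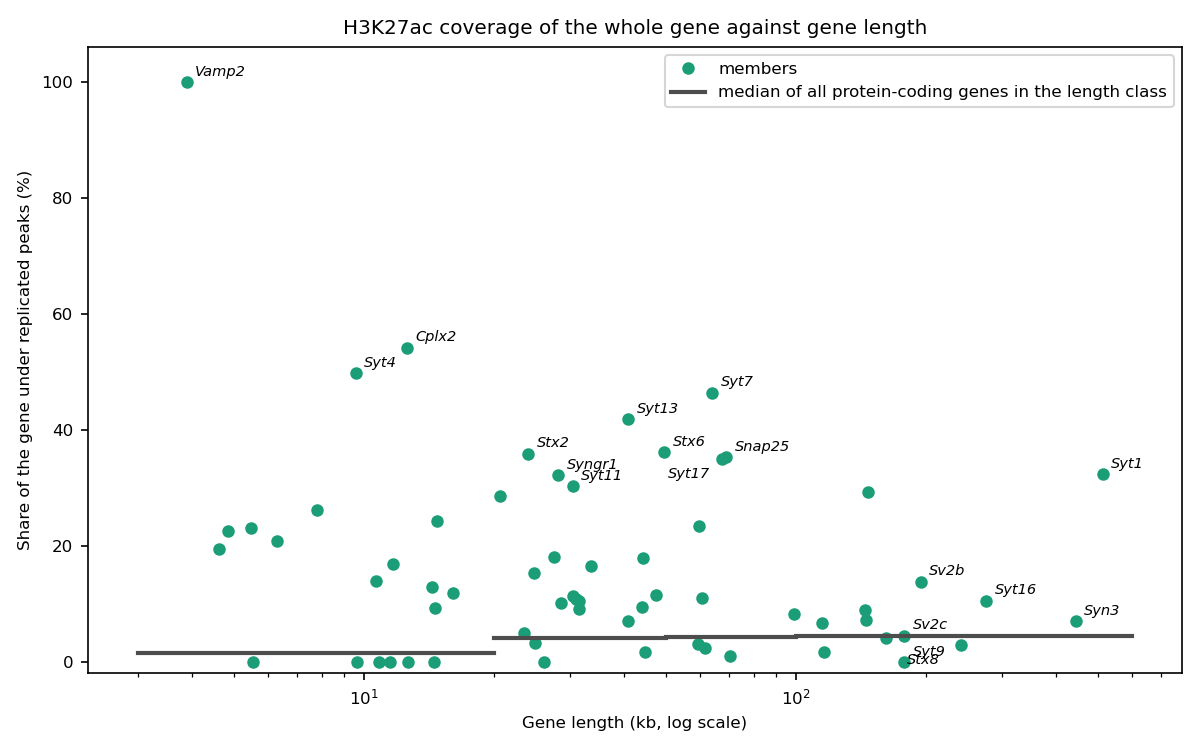
Share of each member's gene under replicated peaks (y axis, %) against gene length (x axis, kb, log scale), with horizontal lines for the median of all coding genes in 4 length classes. Vamp2 is covered over its full length in this list (2130 of 3895 bp in pool D), Syt1 at 513.3 kb has 32.3% covered, and the medians of all genes from 20 kb upward are between 4.11 and 4.38%.

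Other genes of the release pathway, listed from general knowledge of the pathway, were marked at 44 of 55 (80.0%), beside 60.8% of all coding genes. Their median covered length was 3231 bp. In the active zone, where vesicles dock and are primed, 11 of 13 were marked. Pclo (23.4) and Rimbp2 (22.1) led, and Rims3 and Unc13c were unmarked, though Unc13c had a promoter peak in pool C. All 4 genes of SNARE disassembly were marked, led by the ATPase Nsf (21.9) and Napg (16.1). Of the vesicle GTPase group 6 of 7 were marked, with Rab3a (23.6) and Rab3d (15.3) highest and Rab3b unmarked. Endocytosis genes were marked in 6 of 6, led by the lipid phosphatase Synj1 (28.0) and the dynamin Dnm1 (27.9).

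Neurotransmitter transporters of the vesicle were the line with the fewest marks, 2 of 6. Slc17a7, the vesicular glutamate transporter of most forebrain excitatory neurons, had 14.9, and Slc17a6, which predominates in subcortical neurons, had 2.60 and was in neither pool list. The unmarked ones were Slc17a8, the GABA transporter Slc32a1, the monoamine transporter Slc18a2 and the acetylcholine transporter Slc18a3, and of these Slc32a1 had a promoter peak in pool C. Among relatives outside the symbol rule 5 of 9 were marked, led by Sypl (21.1) and Stxbp5l (20.2), with Sytl1, Sytl3, Sytl4 and Sytl5 unmarked. All 10 trafficking SNAREs outside the rule were marked, and Vti1b (45.2) and Gosr2 (23.6) were highest.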

How the data were processed

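H3K27ac ChIP-seq peaks of 2 hippocampal pools were analysed as 4 deposited lists on mm10: replicated, both pools joined, pool C and pool D. Technical replicates had been joined by the authors. The sources used here name no aligner, caller, version or signal scaling. The authors deposited a signal, a −log10 q and a summit offset per peak, which were used only within a list. Depth per sample is unknown. TSSs and lengths came from GENCODE M21, sequence from the RefSeq GRCm38.p6 genome; 49 of 64 members were in the RefSeq promoter table. The main TSS was that of the coding transcript with the best APPRIS and support level.

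Members, role groups, lists and motifs were chosen with earlier results of these data known, and with 1 group no test was made. Every count covers all 64 members, and some items are not reported here. Of the members named, the 2 strongest per role group, the unmarked ones and those with the 5 largest and 5 smallest covered lengths (7 tied at 0) were given in more detail. Alternatives were other lists, a −log10 q of 5 or more, signal above the list median, and other windows or TSSs. Overlap counting was tested on simulated data. Python 3.11.15, numpy 2.4.6 and pandas 2.3.3 were used.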

Additional observations from a re-analysis of the deposited data

How the results depend on the processing

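The number of marked members was between 50 and 56 under every alternative run, 50 when peaks holding another gene's TSS were left out. Neither a −log10 q of 5 or more nor a signal above the list median changed a member's promoter call. Stxbp2 gained a promoter peak in the pool C and joined lists and Syt9 in the joined list, and Sv2c and Vamp5 lost theirs in pool D. Promoter peaks of 5 kb or more were found at 1 to 3 members when either pool was left out, 1 with pool D alone, and at 4 with a TSS window of 2.5 kb, which added Syt11. The median covered length was 2077 bp within 2 kb (all genes, 1086 bp) and 5774.5 bp within 25 kb (all genes, 2570 bp), and 1956.5 to 3027 bp when either pool was left out. The median signal percentile was 58.0 to 60.4 when either pool was left out. The CpG-poor share of all genes was 37.8% without receptor families. No paired analysis was possible because no result comes from a test. Depth is unknown, so the calls of Sv2c, Vamp5, Stxbp2 and Syt9, which differ between lists, cannot be set against the read number.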

Other observations

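Some genes outside the family went beyond its members in breadth, and those named here were picked after their values were seen. Napa, the alpha-SNAP that works with Nsf, had a promoter peak of 17178 bp, and Slc17a7 had one of 10389 bp, both wider than the 9557 bp of Syt1. Dnm1 had 15179 bp covered within 10 kb of its TSS and the excitatory neuron marker Camk2a 19091 bp, beside 14315 bp for Cplx2. The 4 excitatory neuron markers had a median covered length of 13667.5 bp. In gene bodies, the active zone genes Erc2 (70 peaks) and Ppfia2 (51 peaks) had more body peaks than any member but Syt1. These counts were not set against gene length, with which body peaks rise in number. The active zone genes had a median length of 277.4 kb, beside 31.2 kb for members.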
